A study of Mus musculus with 12 samples.

Results

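The complement system and its regulators were followed in cultured adventitial fibroblasts through 8 genes chosen by name, *C3*, *C4b*, *C1ra*, *C7*, *Cfb*, *Masp1*, *Serping1* and *Ptx3*, out of 54352 gene symbols counted. The genes were chosen by name with earlier results of these data known. Fibroblasts were grown from explants of the adventitia, the outer layer of the vessel wall, of the ascending or the descending aorta of wild-type C57BL/6 mice. At each site, 3 cultures received the solute as control and 3 received mouse TGFβ at 10 ng/mL for 48 h, which gave 12 libraries in 4 groups. The sample labels give an age of 14 weeks for all of them, and the sources differ on age and on the number of passages. Both sites were dissected from 6 male mice, fewer than the 12 cultures, so cultures share animals, and no source states which ones. The p-values therefore measure the spread between these cultures, not between animals. Bulk RNA of a culture was counted, in which fewer cells of a type and less RNA per cell cannot be told apart.

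Complement is a cascade of plasma and tissue proteases that marks targets with fragments of C3 and C4 and ends in a pore, the membrane attack complex. It is started by antibody-bound C1 (classical pathway), by sugar-binding lectins (lectin pathway) or by the slow activation of C3 itself, which factor B amplifies (alternative pathway). The liver makes most of the circulating proteins, while fibroblasts and macrophages make several of them locally. Among the genes studied, *C1ra* encodes the C1r protease of the C1 complex and *Masp1* encodes proteases of the lectin pathway. *C4b*, *C3* and *Cfb* encode C4, C3 and factor B, and *C7* a part of the membrane attack complex. *Serping1* encodes C1 inhibitor, which blocks C1r, C1s and lectin pathway proteases. *Ptx3* encodes a long pentraxin, a soluble recognition protein that binds C1q.

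Between 16250126 and 23892943 reads were counted per library. Levels are given as normalized CPM, which is the count of a gene divided by the library size after TMM scaling in edgeR, and 3 counts were taken as the floor of a library, which lay at 0.117 to 0.207 normalized CPM and covers counting error only. Descending control replicate 3 stood apart, with 13031 genes detected against 19337 to 20931 in the other libraries and 11.02% of its counts on mitochondrial genes against 0.703 to 1.03%. Ascending control replicate 2 carried macrophage RNA. The summed level of 15 macrophage markers was 435.7 normalized CPM there and 17.2 to 72.0 in the other 11 libraries, and 14 of the 15 were highest in it. Results of the 8 genes that rest on either of these libraries are given with and without it. Fibroblast markers were high in every library, at a sum of 14329 to 26201 normalized CPM over 8 genes, while 6 endothelial markers summed to at most 2.20 and 4 T and B cell markers to at most 2.90. The 5 smooth muscle markers, among them *Acta2* and *Tagln*, which activated fibroblasts also express, summed to 1536 to 8325 and 3 Schwann cell markers to 10.8 to 24.8.

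The promoters of *C3* and *Ptx3* are shown because these genes fell together with TGFβ in ascending fibroblasts. They run from 250 bases before to 30 bases after the start of the gene in the RefSeq table of GRCm38.p6, 5′ to 3′ on the strand of the gene, and capitals mark matches to the NF-κB or C/EBP motif. The table held promoters for 4 of the 8 genes, *C3*, *C1ra*, *C7* and *Ptx3*. *C3* is at chr17:57228107-57228386 on the minus strand and *Ptx3* at chr3:66219637-66219916 on the plus strand. That of *C1ra* is not shown, since 216 of the 250 bases before its RefSeq start lie inside the gene as GENCODE vM21 annotates it.
C3: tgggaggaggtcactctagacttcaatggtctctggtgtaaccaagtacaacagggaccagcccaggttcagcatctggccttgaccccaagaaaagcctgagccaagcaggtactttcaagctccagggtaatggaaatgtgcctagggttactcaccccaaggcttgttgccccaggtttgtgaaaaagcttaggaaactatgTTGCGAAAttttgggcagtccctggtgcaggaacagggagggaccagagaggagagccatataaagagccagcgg
Ptx3: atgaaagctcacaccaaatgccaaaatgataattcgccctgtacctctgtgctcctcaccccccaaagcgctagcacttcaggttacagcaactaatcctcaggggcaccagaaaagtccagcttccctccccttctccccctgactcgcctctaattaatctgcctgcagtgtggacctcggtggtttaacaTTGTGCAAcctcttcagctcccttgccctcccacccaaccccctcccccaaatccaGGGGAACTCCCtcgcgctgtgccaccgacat

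Both strands of the 300 bases from 250 before to 50 after the start were searched for the NF-κB motif, C/EBP (TTGCNNAA), STAT (TTCNNNGAA), AP-1 (TGANTCA), an interferon element core (GAAANNGAA), the SMAD palindrome (GTCTAGAC) and the shorter SMAD site (CAGACA). *Ptx3* held a pair of overlapping NF-κB matches, from -1 to 9 and from 1 to 10 of the start, and a C/EBP match from -57 to -50. *C3* held a C/EBP match from -45 to -38, and *C1ra* one from 17 to 24 with a STAT match from 33 to 41. *C7* held a STAT match from -164 to -156 and an interferon element core from 9 to 17. Of all 32851 promoters in the table, 4.51% held the NF-κB motif, 10.8% C/EBP, 8.3% STAT and 8.56% the interferon element core. Neither SMAD motif nor AP-1 was matched in the 4 promoters, against 0.213%, 21% and 7.81% of all promoters. A match describes the letters of the window and is not a bound site.

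Levels per length of exon differed widely between the 8 genes. Averaged over the 12 libraries, *Serping1* stood at 52.7 normalized CPM per kb of exon, *Ptx3* at 26.9, *C1ra* at 9.05 and *Masp1* at 7.17. *C4b* and *C3* lay lower, at 1.46 and 1.41. *Cfb* and *C7*, at 0.0295 and 0.0204, rest on counts near the floor, so the span of all 8 was not measured. Without the 2 doubted controls the order of the first 4 changed with treatment. In ascending control cultures it was *Serping1* (88.5 per kb), *Ptx3* (48.6), *C1ra* (10.0) and *Masp1* (2.22). In descending TGFβ cultures *Serping1* (18.0), *Ptx3* (17.6) and *Masp1* (15.6) lay close together and *C1ra* was at 5.79.

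**Figure D1:**
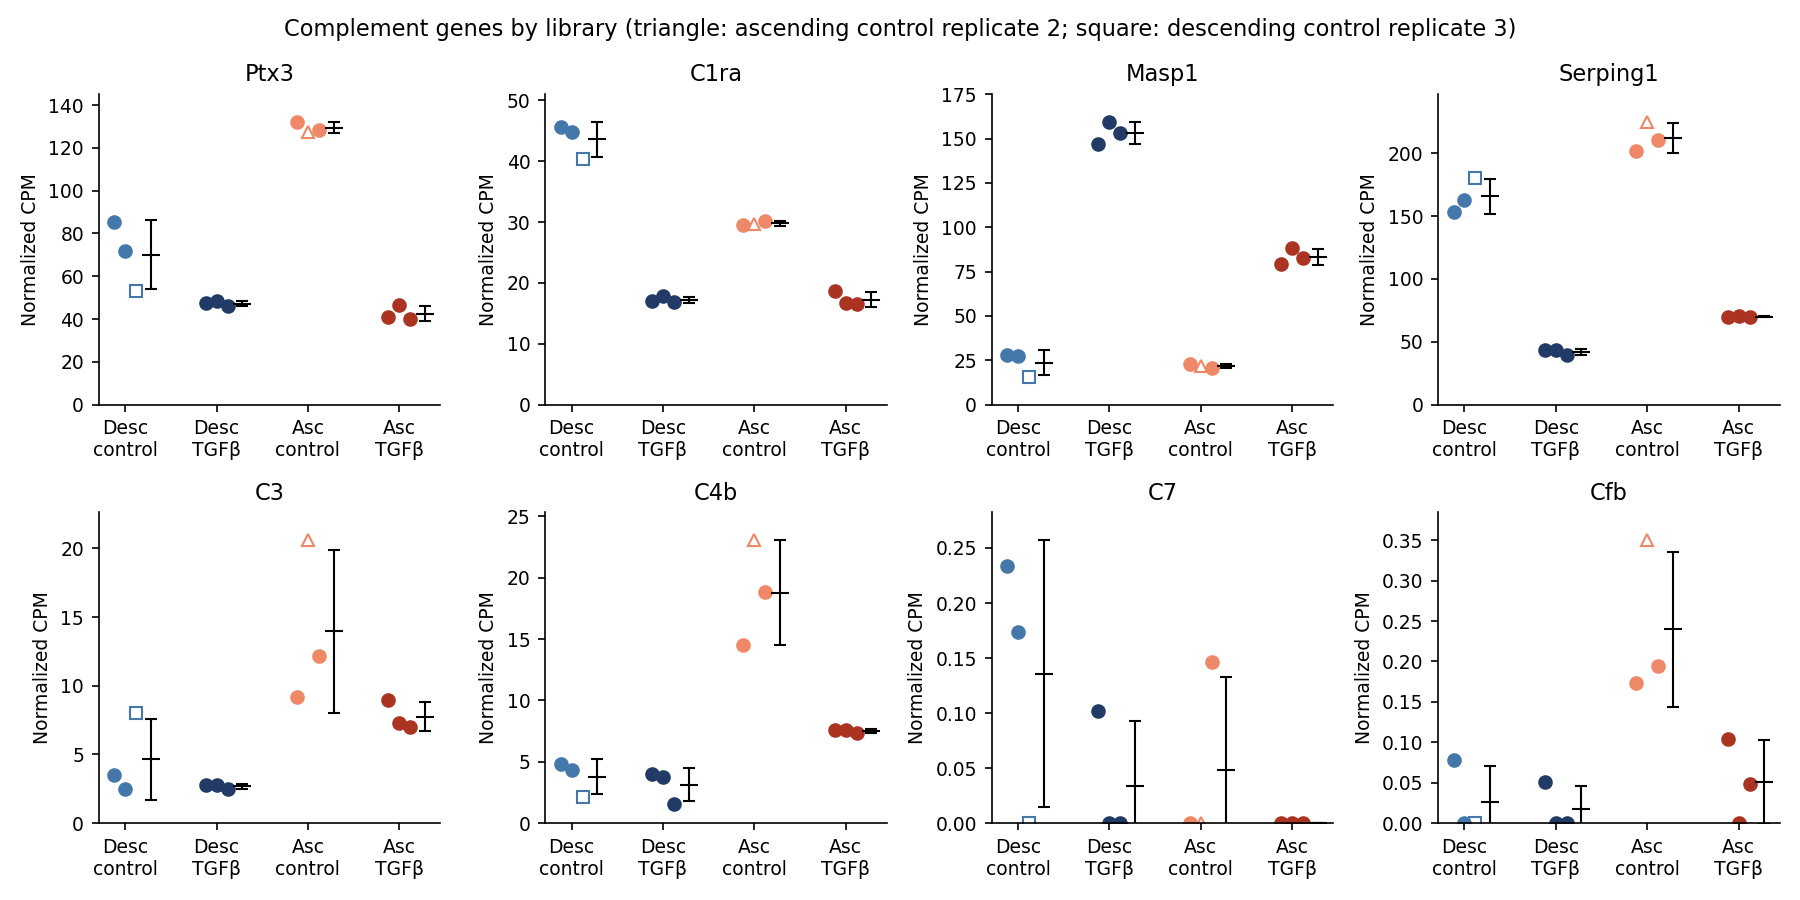
Normalized CPM of the 8 complement genes in each of the 12 libraries (points, linear axes from 0), with the mean and SD of the 3 libraries of a group (bars). *Serping1*, *Ptx3*, *C1ra* and *C4b* are lower and *Masp1* is higher in the ascending TGFβ than in the ascending control libraries, *C3* in the control library marked by a triangle is at 20.6, and *C7* and *Cfb* stay at or below 0.350 in every library.

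The first comparison asked how complement genes respond to TGFβ in fibroblasts of the ascending aorta. *Serping1*, *Ptx3*, *C4b*, *C1ra* and *C3* fell and *Masp1* rose. The changes were 3.04-fold for *Serping1*, 3.05-fold for *Ptx3* and 3.82-fold for *Masp1*. *C7* and *Cfb* were too low for edgeR's filter. Of the 6 genes that passed it, 5 fell at an adjusted p under 0.05 (edgeR's quasi-likelihood F-test, Benjamini-Hochberg over all genes tested), where 27.6% of the 13917 genes tested fell, and 1 rose, where 28.2% rose. The median log2 fold change was -1.09 over the 6 genes and 0.00 over all genes tested.

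*Serping1*, the inhibitor of C1, was at 201.4, 225.0 and 210.2 normalized CPM in ascending control replicates 1 to 3 and at 70.0, 70.2 and 69.9 in the TGFβ cultures. The groups did not overlap, and the 3 treated cultures differed by less than 1 normalized CPM. Its log2 fold change was -1.60 (standard error, SE, 0.04, adjusted p = 1.24e-14 by edgeR). *Ptx3*, the pentraxin, was at 132.2, 127.3 and 128.4 normalized CPM in control and 41.1, 46.8 and 39.9 in TGFβ cultures. Every control lay above every treated culture, with a log2 fold change of -1.61 (SE 0.05, adjusted p = 1.33e-13 by edgeR).

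*Masp1*, the gene of the lectin pathway proteases, moved the other way. It was at 23.1, 21.5 and 20.6 normalized CPM in ascending control and 79.4, 88.2 and 82.6 in ascending TGFβ cultures, and the groups were far apart. Its log2 fold change was 1.93 (SE 0.06, adjusted p = 4.10e-14 by edgeR). *Masp1* gives rise to several proteins by alternative splicing, which counts per gene do not tell apart.

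*C1ra*, which encodes the C1r protease, was at 29.5, 29.6 and 30.3 normalized CPM in control and 18.7, 16.7 and 16.5 in TGFβ cultures of the ascending aorta. The controls agreed within 1 normalized CPM and lay above all treated cultures (log2 fold change -0.79, SE 0.07, adjusted p = 2.61e-08 by edgeR). Of the 50-base sequences of its exons, 50.8% also occur in another gene, mostly *C1rb*, so reads that fit both may be left uncounted. *C1rb* itself had 0 or 1 count in each library.

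*C4b* was at 14.5, 23.0 and 18.8 normalized CPM in ascending control and 7.58, 7.62 and 7.31 in TGFβ cultures. Replicate 2, the culture with macrophage RNA, was the highest of the controls, and the groups did not overlap with or without it. The log2 fold change was -1.32 (SE 0.14, adjusted p = 3.88e-07 by edgeR) and -1.15 (SE 0.12, adjusted p = 3.86e-09) without that culture. For *C4b*, 34.6% of 50-base sequences occur in another gene, mostly *C4a*.

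*C3*, where the pathways converge, was at 9.17, 20.6 and 12.1 normalized CPM in ascending control and 8.93, 7.29 and 6.97 in ascending TGFβ cultures. The lowest control and the highest treated culture nearly met, and replicate 2 was far above the others. The log2 fold change was -0.85 (SE 0.22, adjusted p = 0.00295 by edgeR). Without ascending control replicate 2 it was -0.46 (SE 0.14, adjusted p = 0.00698). The call was lost with DESeq2's Wald test (adjusted p = 0.0529) and when all 12 libraries shared one fit (adjusted p = 0.208). In that culture *C3* was 1.93 times and *C4b* 1.38 times the mean of the other ascending controls, while the ratio was 1.09 for *Serping1*, 0.992 for *C1ra*, 0.986 for *Masp1* and 0.977 for *Ptx3*. The macrophage marker sum was 6.30 times that mean. Without ascending control replicate 2, 5 of the 6 genes fell and 1 rose, where 25.8% and 26.5% of genes did. In that fit the log2 fold changes were -1.56 for *Serping1*, -1.62 for *Ptx3*, -0.80 for *C1ra* and 1.93 for *Masp1*.

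The macrophage marker sum moved with TGFβ also in the other cultures. It was 66.3 and 72.0 normalized CPM in ascending control replicates 1 and 3 and 36.8 to 52.0 with TGFβ, and 47.5 and 58.4 in descending control replicates 1 and 2 and 17.2 to 30.8 with TGFβ. The part of these cells in the fall of *C3* and *C4b* was not tested. At most 1 of the 15 markers was at 0 in any ascending library.

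**Figure D2:**
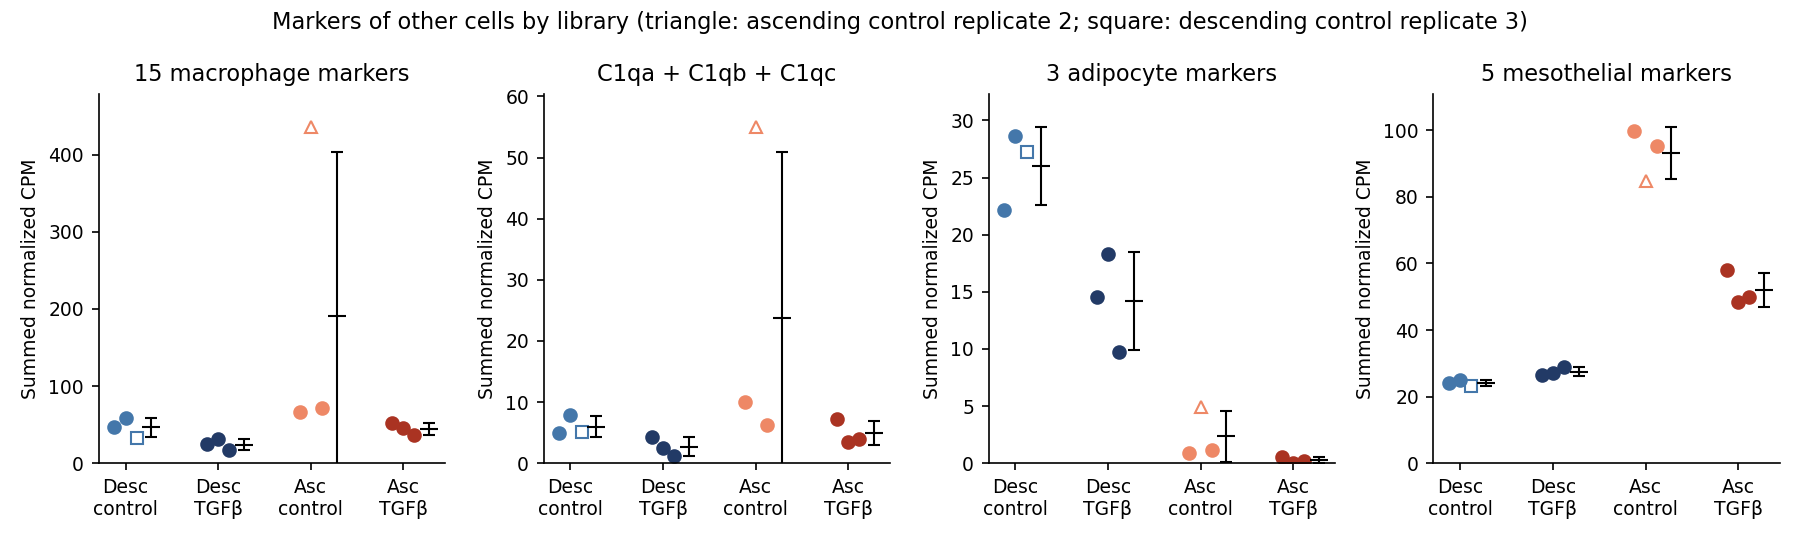
Summed normalized CPM of marker genes of other cells in each library (points, linear axes from 0), with mean and SD of 3 libraries (bars). Ascending control replicate 2 (triangle) reaches 435.7 for the 15 macrophage markers and 55.0 for the C1q genes, adipocyte markers are higher in descending and mesothelial markers in ascending cultures.

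In descending fibroblasts TGFβ lowered *Serping1* 3.97-fold and *C1ra* 2.54-fold and raised *Masp1* 6.41-fold. Of the 6 genes tested, 2 fell and 1 rose, where 4.48% of the 13825 genes tested fell and 3.59% rose. Without descending control replicate 3, 4 fell (*Serping1*, *C1ra*, *Ptx3* and *C4b*) and 1 rose, where 26.3% of 14311 genes fell and 26.6% rose. The median log2 fold change of the 6 genes was -0.69 with that library and -0.65 without it, against 0.02 and -0.01 over all genes tested.

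*Serping1* was at 153.4, 163.1 and 180.6 normalized CPM in descending control replicates 1 to 3 and at 43.1, 43.2 and 39.6 with TGFβ. The groups were far apart (log2 fold change -1.99, SE 0.13, adjusted p = 0.00156 by edgeR). *C1ra* was at 45.7, 44.8 and 40.3 normalized CPM in control and 17.1, 17.8 and 16.9 in treated cultures. It did not overlap either, with a log2 fold change of -1.34 (SE 0.12, adjusted p = 0.00335 by edgeR). Without control replicate 3 the values were -1.91 for *Serping1* (adjusted p = 6.23e-22) and -1.39 for *C1ra* (adjusted p = 1.56e-15).

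*Masp1* was at 28.2, 27.4 and 15.6 normalized CPM in descending control and 146.9, 159.5 and 153.1 in descending TGFβ cultures. Replicate 3 was the lowest control. TGFβ changed *Masp1* by a log2 fold change of 2.68 (SE 0.25, adjusted p = 0.00376 by edgeR) and 2.46 (SE 0.06, adjusted p = 9.37e-24) without replicate 3.

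*Ptx3* was at 85.2, 71.7 and 53.2 normalized CPM in descending control and 47.4, 48.2 and 46.0 in descending TGFβ cultures. Every control lay above every treated culture, replicate 3 the least. The log2 fold change was -0.58 (SE 0.19, adjusted p = 0.134 by edgeR) and did not pass the test, while without replicate 3 it was -0.73 (SE 0.07, adjusted p = 2.00e-10) and did. With all 12 libraries in one fit *Ptx3* also passed, at -0.57 (adjusted p = 0.0159).

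*C4b* was at 4.83, 4.34 and 2.14 normalized CPM in descending control and 3.98, 3.80 and 1.56 with TGFβ, and the groups overlapped. Its log2 fold change was -0.29 (SE 0.50, adjusted p = 0.770 by edgeR) and, without control replicate 3, -0.57 (SE 0.24, adjusted p = 0.0484). *C3* was at 3.50, 2.47 and 8.003 in control and 2.81, 2.77 and 2.46 with TGFβ, and replicate 3 was the highest library. No change in *C3* passed the test with that library (log2 fold change -0.80, SE 0.49, adjusted p = 0.381 by edgeR) or without it (-0.16, SE 0.23, adjusted p = 0.572).

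**Figure D3:**
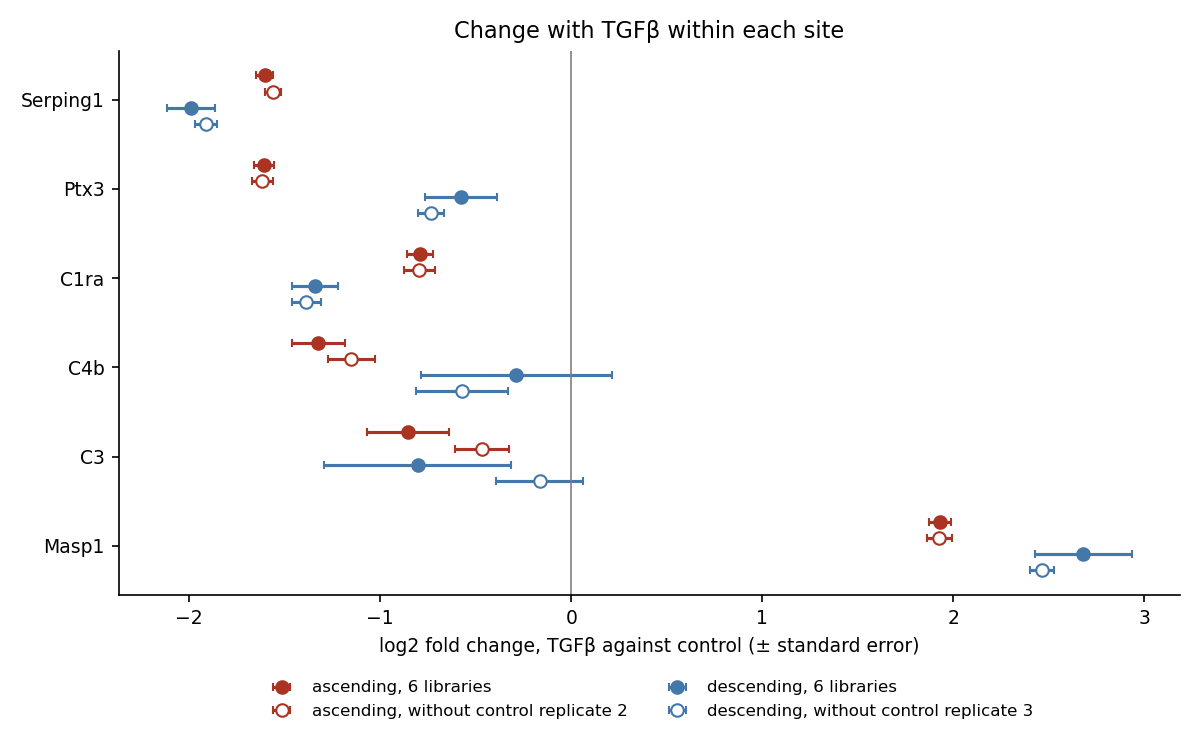
Log2 fold change of 6 complement genes with TGFβ against control (horizontal axis, ± SE by edgeR) in ascending and descending fibroblasts, with all 6 libraries (filled) and without the doubted control (open). *Masp1* lies at 1.93 and 2.68, the other genes lie below 0, and *Ptx3* is further below 0 in ascending (-1.61) than in descending fibroblasts (-0.58).

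Whether the response differed between the sites was tested as an interaction, the change with TGFβ in ascending minus that in descending fibroblasts. With all 12 libraries edgeR called 0 of the 6 genes, where 0.806% of the 14637 genes tested were called. Unadjusted, 4 of the 6 were under 0.05, where 10% of all genes tested were, and DESeq2 called *Ptx3* and *C1ra*, where it called 3.14% of genes. Without descending control replicate 3, edgeR called *C1ra* and *Serping1* with positive values, where 6.07% of genes were positive, and *Ptx3* and *Masp1* with negative values, where 7.4% were. With both doubted controls left out the same 4 were called, where 6.09% of genes were positive and 7.16% negative.

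The largest of these 4 differences was that of *Ptx3*. Its interaction was -1.03 on the log2 scale (SE 0.20, adjusted p = 0.0511 by edgeR) with all libraries and -0.87 (SE 0.09, adjusted p = 2.01e-07) without descending control replicate 3, a steeper fall in ascending fibroblasts. *Masp1* had -0.75 (SE 0.26, adjusted p = 0.314) with all libraries and -0.53 (SE 0.09, adjusted p = 8.28e-05) without that library, a smaller rise in ascending fibroblasts.

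*C1ra* had an interaction of 0.55 (SE 0.13, adjusted p = 0.0942 by edgeR) with all libraries and 0.60 (SE 0.10, adjusted p = 8.30e-05) without descending control replicate 3, and *Serping1* had 0.38 (SE 0.12, adjusted p = 0.238) and 0.31 (SE 0.07, adjusted p = 0.00370). Both fell less in ascending fibroblasts. *C4b*, at -1.03 (SE 0.51, adjusted p = 0.538), was not called with all libraries, nor without replicate 3 (-0.75, adjusted p = 0.123), without ascending control replicate 2 (-0.86, adjusted p = 0.746) or without both (-0.57, adjusted p = 0.203). *C3* had -0.07 (SE 0.59, adjusted p = 0.955) with all libraries, and its sign depended on which control was left out.

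Control cultures of the ascending and the descending aorta were then compared. *C4b* was 4.97-fold higher in ascending fibroblasts, which was the only call among the 6 genes with all libraries, where 1.19% of the 14090 genes tested were higher in ascending fibroblasts and 1.47% lower. The ascending controls were at 14.5 to 23.0 and the descending controls at 2.14 to 4.83 normalized CPM, with no overlap, at a log2 fold change of 2.31 (SE 0.36, adjusted p = 0.0346 by edgeR). Leaving out any of the control libraries other than descending replicate 3 ended this call. Without descending replicate 3 the value was 2.04 (SE 0.18, adjusted p = 9.71e-07), without both doubted controls it was 1.86 (SE 0.15, adjusted p = 2.62e-10), and without ascending replicate 2 it was 2.15 (adjusted p = 0.185).

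Without descending control replicate 3 all 6 genes were called, 4 higher and 2 lower in ascending fibroblasts, where 16.4% and 15.2% of 14644 genes were. *C3* was at 9.17 to 20.6 normalized CPM in ascending and 2.47 to 8.003 in descending controls. These ranges did not overlap although replicate 3, at 8.003, lay well above the other descending controls. The log2 fold change was 1.59 (SE 0.54, adjusted p = 0.279 by edgeR) with all libraries, 2.22 (SE 0.30, adjusted p = 6.10e-05) without descending replicate 3 and 1.83 (SE 0.19, adjusted p = 2.40e-08) without both doubted controls. Without ascending replicate 2 alone, the culture with macrophage RNA, the value was 1.20 (SE 0.57, adjusted p = 0.819).

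*Ptx3* was at 127.3 to 132.2 normalized CPM in ascending and 53.2 to 85.2 in descending controls, a gap wider than either range. Its log2 fold change was 0.89 (SE 0.19, adjusted p = 0.0820 by edgeR) and 0.73 (SE 0.07, adjusted p = 1.28e-06) without descending replicate 3. *Serping1* was at 201.4 to 225.0 in ascending and 153.4 to 180.6 in descending controls, with log2 fold changes of 0.36 (adjusted p = 0.262) and 0.44 (adjusted p = 2.38e-05) in these fits.

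Both proteases were lower in ascending controls once descending replicate 3 was left out. *C1ra* was at 29.5 to 30.3 normalized CPM in ascending and 40.3 to 45.7 in descending controls, with log2 fold changes of -0.54 (adjusted p = 0.0787 by edgeR) with all libraries and -0.59 (adjusted p = 2.55e-06) without replicate 3. *Masp1* was at 20.6 to 23.1 in ascending and 15.6 to 28.2 in descending controls, where replicate 3 alone lay below the ascending range. Its log2 fold change was -0.12 (adjusted p = 0.818) with all libraries and -0.34 (adjusted p = 0.00233) without replicate 3. Without both doubted controls the 4 values were 0.74 for *Ptx3*, 0.39 for *Serping1*, -0.59 for *C1ra* and -0.34 for *Masp1*, all called, where 15.6% of genes were higher and 15.2% lower.

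After TGFβ the sites were compared in libraries none of which stood apart. *C3*, *C4b* and *Serping1* were higher and *Masp1* was lower in ascending fibroblasts. Of 6 genes tested, 3 were higher, where 18.1% of 13678 genes were, and 1 was lower, where 18.2% were. *C3* was at 6.97 to 8.93 normalized CPM in ascending and 2.46 to 2.81 in descending TGFβ cultures (log2 fold change 1.53, SE 0.16, adjusted p = 7.70e-09 by edgeR). *C4b* was at 7.31 to 7.62 and 1.56 to 3.98 (log2 fold change 1.29, SE 0.20, adjusted p = 6.00e-06). With all 12 libraries in one fit neither passed, at adjusted p = 0.0546 for *C3* and 0.0682 for *C4b*.

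*Serping1* was at 69.9 to 70.2 normalized CPM in ascending and 39.6 to 43.2 in descending TGFβ cultures, without overlap (log2 fold change 0.74, SE 0.05, adjusted p = 1.20e-12 by edgeR). *Masp1* was at 79.4 to 88.2 and 146.9 to 159.5 (log2 fold change -0.87, SE 0.05, adjusted p = 2.15e-15). *C1ra* was at 16.5 to 18.7 in ascending and 16.9 to 17.8 in descending cultures, ranges that overlapped (log2 fold change 0.00, SE 0.09, adjusted p = 0.992). *Ptx3*, at 39.9 to 46.8 and 46.0 to 48.2, did not pass either (log2 fold change -0.14, SE 0.06, adjusted p = 0.0633), but was called lower in ascending fibroblasts without ascending TGFβ replicate 2 (-0.22, adjusted p = 0.00966).

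Markers of other cell types differed between the sites too. Mesothelial markers summed to 84.7 to 99.7 normalized CPM in ascending and 23.3 to 25.1 in descending controls, and to 48.6 to 58.0 and 26.4 to 28.9 with TGFβ. Adipocyte markers summed to 0.0473 to 4.95 in all ascending and 9.74 to 28.6 in all descending libraries. Smooth muscle markers summed to 1536 to 1652 in ascending and 2435 to 2516 in descending controls, and to 5055 to 5149 and 7900 to 8325 with TGFβ. Like *Masp1*, they were higher with TGFβ at both sites and, within TGFβ, lower in ascending fibroblasts. Schwann cell markers summed to 19.4 to 23.4 in ascending and 14.8 to 24.8 in descending controls, and to 12.7 to 13.7 and 10.8 to 12.1 with TGFβ. The macrophage marker sum with TGFβ was 36.8 to 52.0 in ascending and 17.2 to 30.8 in descending cultures. The part of these cells in the results of *C3*, *C4b* and *Masp1* was not tested.

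**Figure D4:**
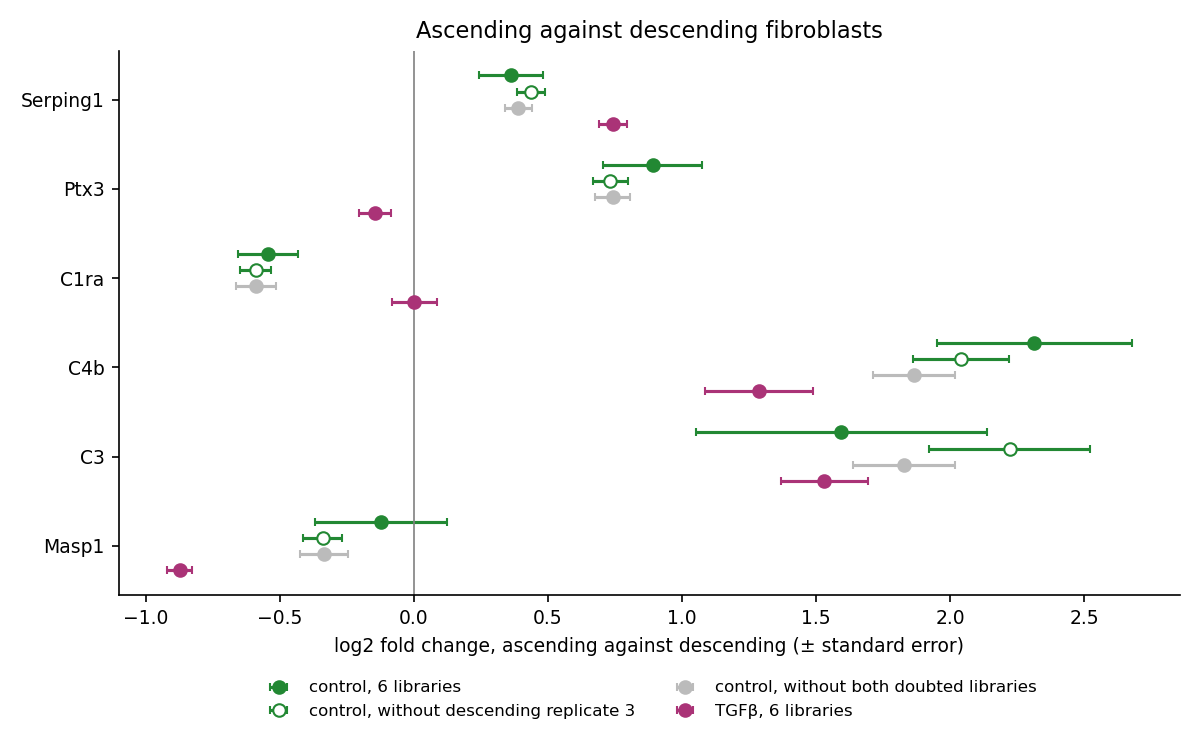
Log2 fold change of 6 complement genes in ascending against descending fibroblasts (horizontal axis, ± SE by edgeR), in control cultures with all libraries and without the doubted ones, and in TGFβ cultures. *C3* and *C4b* lie above 1 in each fit, *Ptx3* lies at 0.89 in control and -0.14 with TGFβ, and *Masp1* at -0.12 and -0.87.

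*C7* and *Cfb* were near the floor in every group, and no fold change is given for them. *C7*, of the membrane attack complex, had 6, 4 and 0 counts in descending control replicates 1 to 3 and 2, 0 and 0 in descending TGFβ libraries. In ascending cultures it had 0, 0 and 3 counts in control and 0 in each TGFβ library. *C7* counts exceeded the floor of 3 in descending controls 1 and 2 alone, and a count of 0 allows a level up to that floor.

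*Cfb*, the gene of factor B, had 2, 0 and 0 counts in descending control and 1, 0 and 0 in descending TGFβ libraries. It had 4, 7 and 4 counts in ascending control and 2, 0 and 1 in ascending TGFβ libraries. The highest count was in the culture with macrophage RNA, and each ascending control had more counts than any other library. In GENCODE vM21, 79.5% of its 2825 exon bases overlap *Gm20547*, a readthrough gene on the same strand that had 0 counts in all 12 libraries. Whether reads on both genes were counted is not stated, and the part of this overlap in the low counts of *Cfb* was not tested.

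In the GRCm38 annotation *C3* lies on chromosome 17 from 57203970 to 57228136, *C4b* on chromosome 17 from 34728380 to 34743882 and *Cfb* on chromosome 17 from 34856374 to 34862518. *C1ra* lies on chromosome 6 from 124512405 to 124523443, *C7* on chromosome 15 from 4988762 to 5063740 and *Masp1* on chromosome 16 from 23449417 to 23520815. *Serping1* lies on chromosome 2 from 84765387 to 84775444 and *Ptx3* on chromosome 3 from 66219910 to 66225805. All are protein-coding, and the counts cover their exons.

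For each of the 6 genes, the genes with the most similar profile were those with the smallest root mean square difference of centred log2 CPM over the 10 libraries other than the doubted ones. *Serping1* was closest to *Met* (0.07), *Nsg1* (0.12) and *Adgrg2* (0.14). *Ptx3* was closest to *Vldlr* (0.12), *Lingo1* (0.13) and *Macrod1* (0.15), and *C1ra* to *Ksr1* (0.10), *Frmd6* (0.11) and *Arhgap42* (0.11). The profile of *Masp1* was matched best by *Mtus1* (0.16), *Pdzrn3* (0.18) and *Spsb1* (0.18). *C3* and *C4b* had less close neighbours, *Adgrb2* (0.20), *Efna5* (0.21) and *Rnd1* (0.22) for *C3* and *Pcsk6* (0.34), *Abca8b* (0.35) and *Serpinb9b* (0.35) for *C4b*. None of the 6 was among the nearest 3 of another.

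The wider pathway was followed in 56 other complement and pentraxin genes, of which 30 passed the filter over 12 libraries. In ascending fibroblasts 16 of 25 tested fell with TGFβ and 1, *Nptx2*, rose, where 27.6% and 28.2% of all genes did. Without ascending control replicate 2, the culture with macrophage RNA, 9 of 26 fell and 3 rose, where 25.8% and 26.5% of all genes did. The median log2 fold change of the list was -0.50 with that culture and -0.37 without it, against 0.00 over all genes in both fits. In descending fibroblasts 4 of 25 fell, among them *C1s1*, *Clu* and *Colec12*, and none rose, where 4.48% and 3.59% of all genes did. Without descending control replicate 3, 14 of 29 fell and 2 rose there, where 26.3% and 26.6% of all genes did. The median was -0.43 with that library and -0.60 without it, against 0.02 and -0.01 over all genes.

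*C1s1*, the gene of the C1s protease that C1r activates, was at 41.5, 44.8 and 40.8 normalized CPM in ascending control and 139, 148 and 125 in descending control cultures. Its log2 fold change with TGFβ was -0.96 in ascending (adjusted p = 6.79e-10 by edgeR) and -1.58 in descending fibroblasts (adjusted p = 0.00213), or -1.64 (adjusted p = 4.02e-20) without descending control replicate 3. As for *C1ra*, it was lower in ascending controls (log2 fold change -1.69, adjusted p = 0.00383, and -1.75 without descending replicate 3), and 35.1% of its 50-base sequences occur in another gene, mostly *C1s2*. *Colec12*, a scavenger receptor with a collectin domain, fell in both sites, by 1.95 on the log2 scale in ascending (adjusted p = 3.12e-13) and by 1.97 in descending fibroblasts (adjusted p = 0.00752), or by 1.68 without descending control replicate 3.

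The membrane regulators *Cd55*, *Cr1l* and *Cd59a* were among the 10 of these genes with the highest level per length. Their log2 fold change with TGFβ in ascending fibroblasts was 0.05 for *Cd55* (adjusted p = 0.487 by edgeR), 0.00 for *Cr1l* (adjusted p = 0.957) and -0.23 for *Cd59a* (adjusted p = 0.0144). *C1rl*, a C1r-like protease, had -0.57 (adjusted p = 1.74e-06). *C1qa* and *C1qb*, chains of C1q that macrophages make, had -2.35 and -1.997 (adjusted p = 0.00379 and 0.00702), and they were 6.54 and 6.40 times as high in ascending control replicate 2 as the mean of the other ascending controls. Without that culture the values were -0.86 for *C1qa* (adjusted p = 0.0289) and -0.53 for *C1qb* (adjusted p = 0.112), and *Cd59a* was no longer called (adjusted p = 0.0592). *Nptx2*, a pentraxin of neurons, had 1.17 (adjusted p = 9.26e-05).

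**Figure D5:**
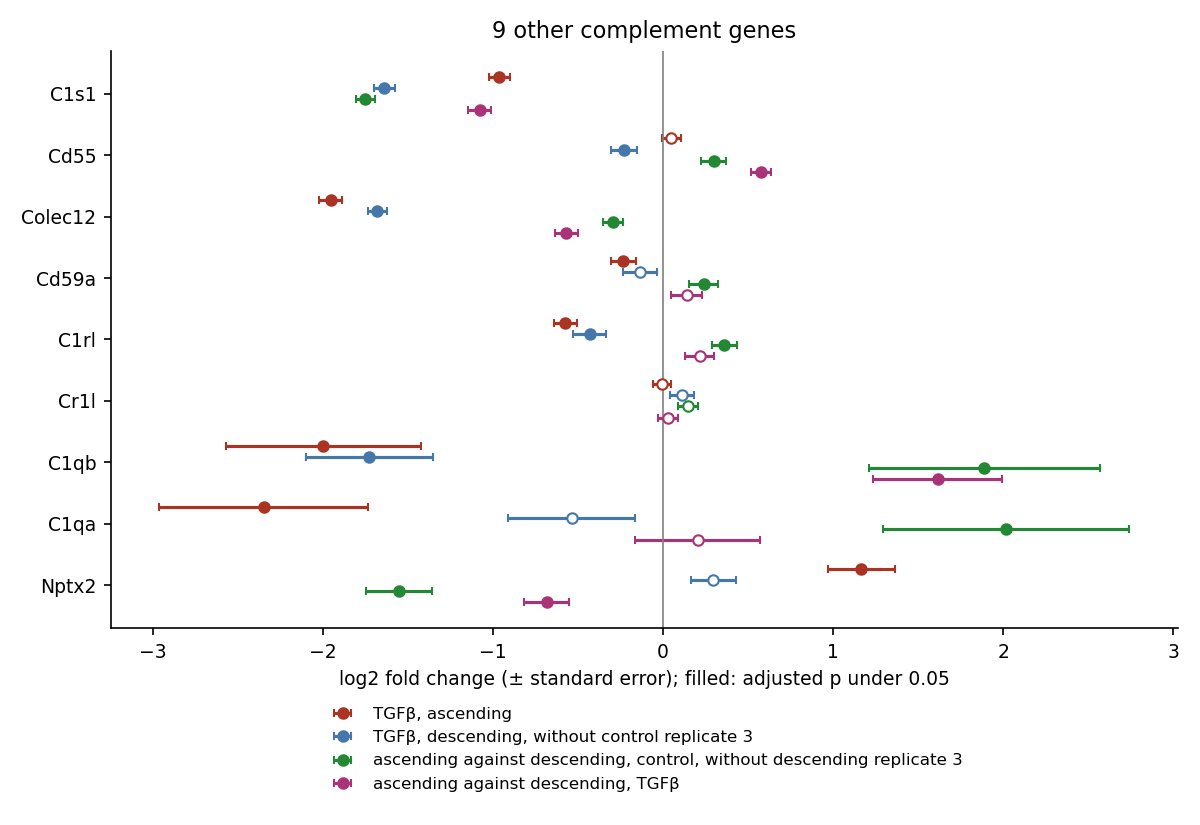
Log2 fold change (horizontal axis, ± SE by edgeR) of 9 other complement genes, with TGFβ within each site and between sites within each treatment. Descending and control fits leave out descending control replicate 3, and filled points passed an adjusted p under 0.05. Ascending control replicate 2, the culture with macrophage RNA in which *C1qa* and *C1qb* were highest, is not left out. *C1s1* is lower in ascending fibroblasts and falls with TGFβ at each site, and *Colec12* does the same.

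Of 24 genes known to drive or accompany complement and pentraxin transcription, 20 were tested in ascending fibroblasts, where 16 fell with TGFβ and 1 rose, both with and without ascending control replicate 2. Of all genes, 27.6% fell and 28.2% rose with that culture, and 25.8% and 26.5% without it. In descending fibroblasts 6 of 21 fell and 2 rose, where 4.48% and 3.59% of all genes did, or 15 and 2 without control replicate 3, where 26.3% and 26.6% did.

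The genes of this list that are named here were chosen after their values were seen. Among those that fell in ascending fibroblasts were the receptor genes *Il1r1* and *Il6ra*, with log2 fold changes of -1.51 and -2.22 (adjusted p = 8.35e-10 and 7.69e-12 by edgeR), and the C/EBP genes *Cebpb* and *Cebpd*, with -0.99 and -0.92 (adjusted p = 6.23e-11 and 1.09e-11). In descending fibroblasts *Il1r1* and *Il6ra* had -2.74 and -2.42 (adjusted p = 0.00403 and 0.00161). There *Cebpb* and *Cebpd* had -0.62 and -0.51 (adjusted p = 0.546 and 0.327), and -1.05 and -0.77 (adjusted p = 7.68e-13 and 1.03e-11) without control replicate 3. *Cebpa*, also on the list, was at 83.7, 78.9 and 17.5 normalized CPM in descending control replicates 1 to 3 and 15.5 to 18.6 with TGFβ. In ascending cultures *Cebpa* was at 8.61, 15.3 and 8.92 in control and 4.63 to 7.10 with TGFβ. The one that rose at both sites was *Il6*, the gene of interleukin 6, with 2.95 in ascending (SE 0.08, adjusted p = 7.58e-15) and 2.99 in descending fibroblasts (SE 0.21, adjusted p = 0.00171), or 3.12 without control replicate 3. *Hp*, the gene of haptoglobin, rose in descending fibroblasts by 1.88 (SE 0.39, adjusted p = 0.0409), or by 1.61 without control replicate 3. In ascending fibroblasts *Hp* fell, with -2.45 (SE 0.68, adjusted p = 0.00551) and, without ascending control replicate 2, -1.49 (SE 0.55, adjusted p = 0.0248).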

How the data were processed

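The authors aligned paired-end RNA-seq reads to mm10 and deposited raw counts per gene symbol from featureCounts, without normalization. The submitters' processing notes name FastQC, STAR, featureCounts and DESeq2 with no version. Strand setting and handling of multi-mapped or overlapping reads are not given in the sources used here. The labels give an age of 14 weeks and 1 batch for all samples.

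Counts of 12 libraries, 3 per group of the labels, were tested with edgeR 4.0.16 in R 4.3.3 (quasi-likelihood F-test, two-sided, TMM, filterByExpr, Benjamini-Hochberg, adjusted p under 0.05) in pairwise fits of 6 libraries, and the interaction in one fit of 12. The standard error was the log2 fold change divided by the square root of F. Normalized CPM used factors over 12 libraries. Exon lengths, overlaps and shared 50-base sequences came from GENCODE vM21, promoters from RefSeq. The members and lists were chosen with earlier results of these data known. All 8 members are named, and of the other complement genes those given with values are from the 10 with the highest CPM per kb, of which 1 is not reported here. For similarity, genes with a mean of at least 5 normalized CPM were ranked on log2 values (prior count 2). The alternatives were DESeq2 1.42.0, its size factors in edgeR, no filter, at least 10 counts in every library, the replicate number as a block, 12 libraries in one fit, each library left out in turn and both doubted controls left out. Fits were tested on simulated data with the same relative spread for every gene and no library that stood apart. That setting does not test the fits that hold descending control replicate 3. Floors cover counting error only.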

Additional observations from a re-analysis of the deposited data

How the results depend on the processing

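In ascending fibroblasts 6 genes were called with TGFβ and 5 or 6 under each alternative run. Of all genes tested, 7767 of 13917 were called in the main fit. DESeq2's Wald test called 6733 of 17995, and the fit of 12 libraries called 2338 of 14637. In descending fibroblasts the count of 3 went to 4 with 12 libraries in one fit and to 5 without descending control replicate 3 and lay at 3 to 5 over the fits that leave out 1 library. The calls over all genes tested were 1115 of 13825 in the main fit, 3570 of 14637 in one fit and 7576 of 14311 without that replicate. Fits without 1 of the other libraries called 213 to 474 genes. In control cultures the count of 1 between the sites became 3 with DESeq2's Wald test, 5 with 12 libraries in one fit and 6 with both doubted controls left out, and ranged from 0 to 6 when 1 library was left out. Of all genes tested there, 374 of 14090 were called in the main fit. The other fits called 1034 of 16494, 1545 of 14637 and 4453 of 14440 in the same order, and 33 to 4631 genes when 1 library was left out. Within TGFβ the count of 4 became 2 with 12 libraries in one fit and lay at 4 to 5 over the fits that leave out 1 library, the gain being *Ptx3*. All genes called there were 4963 of 13678 in the main fit, 1106 of 14637 in one fit and 4340 to 4656 with 1 library left out. The interaction count of 0 became 2 with DESeq2's Wald test, 1 with DESeq2's size factors in edgeR, 1 with at least 10 counts in every library and 4 with both doubted controls left out, and ranged from 0 to 4 when 1 library was left out. The main fit called 118 of all 14637 genes tested. The others called 425 of 13544, 121 of 14637, 168 of 11211 and 1975 of 14901 in the same order, and 25 to 2022 genes when 1 library was left out. The cause of each of these shifts was not tested.

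Of the log2 fold changes of single genes under the alternatives, 345 kept direction and call, 34 gained and 12 lost the call, and 11 changed sign. None of those 11 was called by the main tests. The sign of *C4b* in descending fibroblasts turned to 0.044 without descending TGFβ replicate 3 (from -0.57 over the fits without 1 library), and that of *Masp1* between controls to 0.022 without descending control replicate 1 (from -0.34). For *C1ra* within TGFβ, 6 fits fell below 0, -0.00098 with DESeq2's Wald test, -0.00094 with its size factors and -0.0044 without a filter, and -0.056, -0.010 and -0.016 with 1 library left out, where the highest was 0.034. For the interaction of *C3* the value was 0.32 without ascending control replicate 2, the highest of the fits without 1 library, -0.68 without descending control replicate 3, the lowest, 0.094 without descending control replicate 1 and 0.24 without descending control replicate 2.

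With the replicate block the count was 6 in ascending, 1 in descending (*Serping1*, adjusted p = 0.0460), 0 between controls, 5 within TGFβ and 0 for the interaction. Over all genes tested the block fits called, in the same order, 7766 of 13917, 95 of 13825, 0 of 14090, 5056 of 13678 and 50 of 14637. No source states whether equal numbers mark paired cultures. Of 18 pairs with the same number, 0 had a correlation of deviations over 0.1 (from -0.026 to 0.088). The median was 0.0085 for the same number and -0.0078 for other numbers, and 6 of 12 libraries correlated best with their own number. With 3 libraries per group these values cannot settle whether cultures are paired. At 100 bases, shared sequence was 15.2% for *C4b*, 35.9% for *C1ra* and 66.9% for *Cfb*. *C7* and *Cfb* had 0 to 7 counts per library, too few for a fold change.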
